A study of Mus musculus with 4 samples.

Results

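CR1 and RTE elements are among the oldest LINE families in mammals, and their members were chosen by annotation alone: every locus whose family field read CR1 or RTE. They made up 7909 of the 359255 LINE loci listed in any table, 5808 of them CR1 and 2101 RTE. Of these, 2914 had at least 1 count inside the element in at least 1 library and 4995 were listed only through the intervals that flank them. The counted elements belonged to 6 subfamilies. CR1 comprised L3 with 1810 loci, L3b with 282 and CR1_Mam with 77. RTE comprised L4 with 714, L5 with 22 and ALINE with 9. RNA-seq was performed on 4 libraries from C57BL/6J mice, 1 per group: wild-type (WT) fibroblasts, Lsh-/- fibroblasts, WT whole embryos and Lsh-/- whole embryos, the embryos at E13.5. The fibroblasts came from adult tail tips and had been transformed with SV40, so each fibroblast group was a single cultured line that carried a viral oncogene. Each embryo library held all the tissues of the animal. The control embryos are labelled WT and are called so here, but the study's methods mention heterozygous embryos at this stage, so a heterozygous control cannot be told apart from a WT one. With 1 library per group no difference between genotypes could be tested against replicate spread, and intervals below cover counting error or the spread over loci only.

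LINEs copy themselves through an RNA intermediate. CR1 and RTE copies were inserted in distant ancestors of the mouse, are no longer mobile in mice, and survive as short, mutated fragments, some of which have been taken into the exons of genes. Lsh, encoded by Hells, is a chromatin remodelling protein required for normal DNA methylation of repeats, and CpG is the dinucleotide that carries this methylation.

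Because RNA from an old fragment can be RNA of the gene around it, the elements shown first are those that lie in coding exons on the strand of their gene. All sequences are from the mm9 (NCBIM37) reference genome and run 5′ to 3′ on the strand of the element. Capitals mark bases annotated as coding sequence, and lower case the rest of the element. The first 4 are L3 copies, in Eif4b (chr15:101912366-101912485, plus strand), Txn1 (chr4:57956832-57956910, minus strand), Wee1 (chr7:117269308-117269373, plus strand) and Lphn1 (chr8:86442876-86442937, plus strand). The last is an L4 copy in the predicted gene Gm12166 (chr11:45865459-45865531, minus strand).
L3 in Eif4b: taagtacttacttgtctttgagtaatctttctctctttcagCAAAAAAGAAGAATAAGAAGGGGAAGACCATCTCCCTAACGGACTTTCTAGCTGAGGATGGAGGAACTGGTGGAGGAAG
L3 in Txn1: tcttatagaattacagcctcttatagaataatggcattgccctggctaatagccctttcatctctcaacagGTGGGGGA
L3 in Wee1: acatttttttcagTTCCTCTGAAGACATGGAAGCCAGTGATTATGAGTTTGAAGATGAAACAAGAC
L3 in Lphn1: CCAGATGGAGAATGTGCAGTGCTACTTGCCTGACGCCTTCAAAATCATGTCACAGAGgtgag
L4 in Gm12166: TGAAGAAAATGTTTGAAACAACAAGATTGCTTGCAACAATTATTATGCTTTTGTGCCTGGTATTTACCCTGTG
The capitals covered 79 of 120 bases in the Eif4b element, 53 of 66 in Wee1 and 57 of 62 in Lphn1. In the Txn1 element they covered only 8 of 79, so most of that annotation was intron. In Eif4b, Txn1 and Wee1 the capitals followed the letters ag, the end of an intron, and in Lphn1 they were followed by gt, the start of one.

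The elements shown next were picked by their values from those outside exons that were far higher or lower in an Lsh-/- library. Here capitals mark CpG. The L4 nearest Unc5d lies at chr8:30642848-30643048 (plus strand) and the L3 nearest Cdh12 at chr15:20900067-20900283 (plus strand), both outside genes and counted in Lsh-/- fibroblasts alone. The L3 nearest Macc1 is shown for its middle 300 bases, chr12:120921972-120922271 (plus strand). The L3 nearest Snrpn, at chr7:66922939-66923007 (minus strand), was counted in both Lsh-/- libraries and neither WT library. An L3 in an intron of Trip4, at chr9:65752817-65752890 (minus strand), and an L3 in an intron of Slc1a3, shown for its middle 300 bases at chr15:8613682-8613981 (minus strand), were lower in Lsh-/- fibroblasts.
L4 nearest Unc5d: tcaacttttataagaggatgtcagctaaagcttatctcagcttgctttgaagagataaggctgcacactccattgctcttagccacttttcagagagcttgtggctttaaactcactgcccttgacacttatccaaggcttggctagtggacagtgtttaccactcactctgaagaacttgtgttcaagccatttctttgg
L3 nearest Cdh12: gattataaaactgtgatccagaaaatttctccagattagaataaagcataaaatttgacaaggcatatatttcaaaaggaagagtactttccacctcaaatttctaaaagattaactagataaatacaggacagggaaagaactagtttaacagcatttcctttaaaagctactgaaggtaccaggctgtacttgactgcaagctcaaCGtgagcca
L3 nearest Macc1: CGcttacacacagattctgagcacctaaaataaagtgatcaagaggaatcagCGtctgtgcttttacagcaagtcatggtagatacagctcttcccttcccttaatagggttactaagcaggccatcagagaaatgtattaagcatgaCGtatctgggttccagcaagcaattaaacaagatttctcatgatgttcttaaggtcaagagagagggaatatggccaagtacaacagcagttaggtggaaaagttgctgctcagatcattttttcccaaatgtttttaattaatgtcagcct
L3 nearest Snrpn: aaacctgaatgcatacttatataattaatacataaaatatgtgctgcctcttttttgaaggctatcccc
L3 in Trip4: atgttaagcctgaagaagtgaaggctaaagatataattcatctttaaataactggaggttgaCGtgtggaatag
L3 in Slc1a3: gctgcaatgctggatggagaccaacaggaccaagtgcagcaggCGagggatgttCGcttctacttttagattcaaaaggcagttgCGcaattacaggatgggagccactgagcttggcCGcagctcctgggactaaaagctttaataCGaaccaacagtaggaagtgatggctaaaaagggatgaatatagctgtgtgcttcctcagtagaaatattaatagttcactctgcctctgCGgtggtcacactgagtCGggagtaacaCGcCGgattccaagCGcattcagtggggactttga
The L4 nearest Unc5d and the L3 nearest Snrpn held no CpG. The Cdh12 and Trip4 elements held 1 each, the Macc1 stretch 3 and the Slc1a3 stretch 10.

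The LINE element tables summed to 477719 counts in WT fibroblasts, 456109 in Lsh-/- fibroblasts, 855043 in WT embryos and 808168 in Lsh-/- embryos. The deletion was checked through intervals over Hells. Those over exons 11 and 12 held 937 and 427 counts in WT fibroblasts and WT embryos and 0 in both Lsh-/- libraries. Those over exons 1 to 10 and 14 onwards were counted in every library. The summed level of 4 muscle genes was 0.564 and 2.78 CPM, counts scaled to a common library size, in WT and Lsh-/- fibroblasts against 512 and 530 in WT and Lsh-/- embryos. The 10 fibroblast genes summed to 10248 and 8876 CPM in fibroblasts and to 34057 and 35296 CPM in embryos, and the 6 neural genes to 389 and 325 CPM and to 517 and 531 CPM. These lists therefore separated the tissues by muscle genes but not by fibroblast genes. The libraries of a pair also differed in other ways. Intervals flanking LINE loci on chromosome Y had a sum of 12 for the WT fibroblast line and 5402 for the Lsh-/- line, against 19973 and 20654 in the embryos, so results on the sex chromosomes in fibroblasts cannot be told apart from this difference between the lines. In embryos, all 3 liver genes with intervals were lower in Lsh-/-, with 2806 and 315 counts for Afp, 354 and 61 for Alb and 105 and 10 for Apob in WT and Lsh-/-. In fibroblasts the 3 summed to 0.225 and 3.28 CPM. The 4 erythroid genes with intervals summed to 13.6 and 8.95 CPM in the embryos and to 13.3 and 11.6 CPM in the fibroblasts. Within this list the globin genes were lower in Lsh-/- embryos, with 162 and 14 counts for Hbb-b1 and 29 and 2 for Hba-a1, whereas Alas2, which makes up most of the sum, had 207 and 240. In bulk samples, fewer cells of a type and less RNA per cell cannot be told apart.

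CR1 and RTE elements took a like share of LINE counts in all 4 libraries. Their counts were 24617 in WT fibroblasts, 24153 in Lsh-/- fibroblasts, 43269 in WT embryos and 40606 in Lsh-/- embryos, which were 5.15%, 5.3%, 5.06% and 5.02% of LINE counts in that order. Most of the counted loci held very few. The median element was 110 bp long, and its median count where listed was 2 in each fibroblast library and 4 in each embryo library. By contrast, the 10 highest loci held 27.7 to 30% of all CR1 and RTE counts. L3 alone had 16464, 15770, 29239 and 27426 counts in WT fibroblasts, Lsh-/- fibroblasts, WT embryos and Lsh-/- embryos, while L5 had 25, 3, 128 and 98.

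The counted CR1 and RTE loci lay in exons more often than those of younger LINE families. Of 2914 loci, 294 overlapped an annotated exon, 10.1% (95% Wilson interval 9.05 to 11.2), compared with 5.79% of L2 and 2.29% of L1 loci. In coding exons the share was 3.84% (3.2 to 4.6), against 0.789% (0.657 to 0.947) for L2, another old LINE family, and 0.177% (0.156 to 0.202) for L1, the family that is still mobile in mice. The 2 families were alike in this, with 3.73% (3.01 to 4.62) of CR1 and 4.16% (2.95 to 5.85) of RTE loci in coding exons. Loci were listed because reads fell in them, so these shares describe counted loci and not all copies in the genome.

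The exonic minority held most of the counts. Exons accounted for 69.3% of CR1 and RTE counts in WT fibroblasts, 71.8% in Lsh-/- fibroblasts, 69.7% in WT embryos and 70.9% in Lsh-/- embryos. For L2 the same shares were 48.8 to 53.7% and for L1 20.5 to 28.6%. Introns held 71.4% of CR1 and RTE loci but 19.3 to 24.6% of their counts. Regions outside genes held 18.5% of the loci, with 6.06% and 8.97% of the counts in the WT and Lsh-/- fibroblast libraries. Per kb of element, WT embryos had 883 counts in coding exons and 1392 in untranslated regions (UTRs), against 33.8 in introns and 35.4 outside genes. The difference between exons and introns held in each library.

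**Figure D1:**
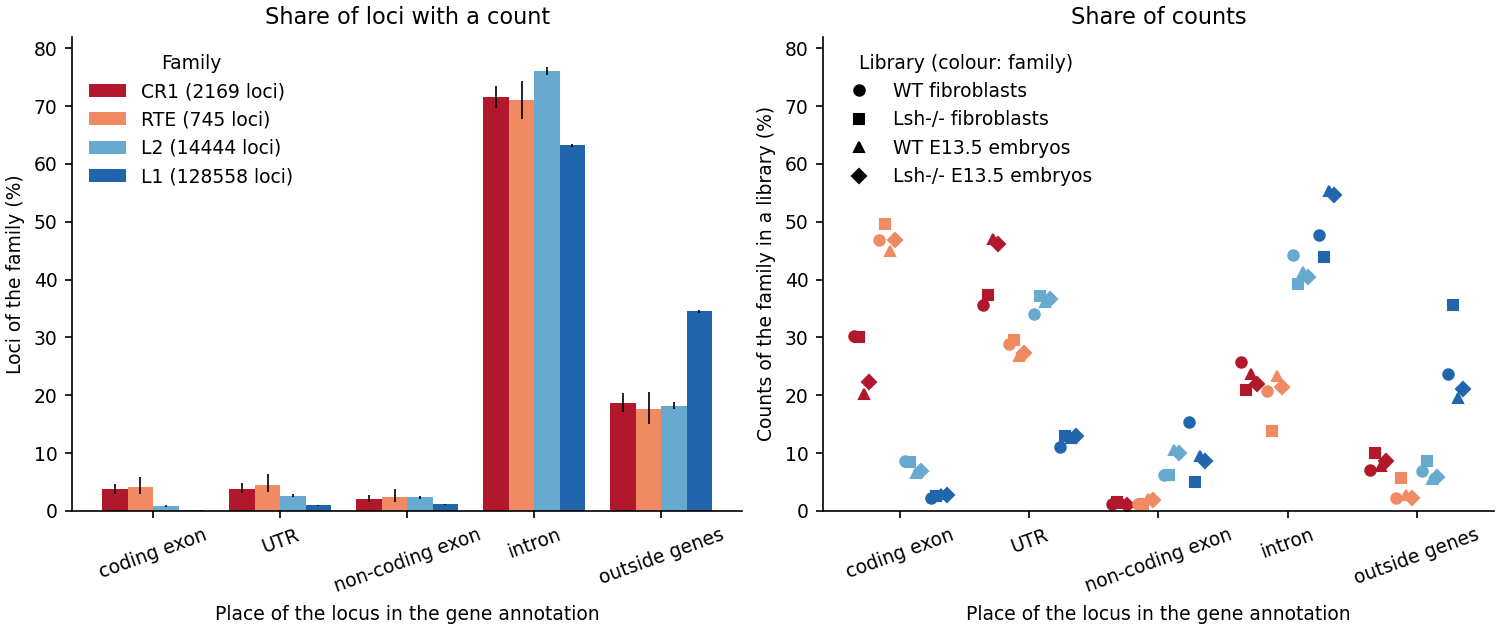
Place of CR1, RTE, L2 and L1 loci in the gene annotation, as a share of loci and as a share of counts in each of the 4 libraries. Among CR1 and RTE loci, 10.1% overlapped an exon and held 69.3 to 71.8% of the counts.

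The overlap with coding sequence was short. Among the 112 members in coding exons, which lay in 111 genes, 26 were wholly coding and 86 partly, with a median of 45.5 coding bases and at most 146. Leaving out members that also touched a UTR, 46 lay on the strand of their gene. In 21 of these a coding stretch began inside the element, and all 21 starts followed the letters ag. In 16 a coding stretch ended inside it, and all 16 ends preceded gt. On the opposite strand the numbers were 19 starts, all after ag, and 11 ends, 10 of them before gt, among 37 members. Splice sites of these genes thus often fell within annotated CR1 or RTE sequence. Members on the strand of their gene and members opposite to it both held counts, 7565 over 62 loci and 3403 over 50 in WT embryos. Whether counting used the strand was not given in the sources used here, so sense and antisense RNA cannot be told apart.

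The loci with the most counts were exonic copies in highly expressed genes. The L3 in a UTR of Mlec, which encodes an endoplasmic reticulum lectin, had 815 and 1130 counts in WT and Lsh-/- fibroblasts and 2809 and 2023 in WT and Lsh-/- embryos. Between genotypes the log2 fold change, always given as Lsh-/- over WT after scaling for library size, was 0.42 (exact 95% interval 0.29 to 0.56) in fibroblasts and -0.42 (-0.50 to -0.34) in embryos. The direction differed between the tissues and the size was small in both. The L3 in Eif4b, a translation initiation factor, had 1305, 1068, 1181 and 1122 counts in WT fibroblasts, Lsh-/- fibroblasts, WT embryos and Lsh-/- embryos. Its log2 fold change was -0.34 (-0.45 to -0.22) in fibroblasts and -0.02 (-0.14 to 0.10) in embryos. The L3 in Txn1, which encodes thioredoxin, had 984, 857, 666 and 771 counts in the same order, with log2 fold changes of -0.25 (-0.38 to -0.11) and 0.27 (0.11 to 0.42). None of these 3 approached a log2 fold change of 1.

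The L3 in a UTR of Igfbp5, an insulin-like growth factor binding protein, was an embryo locus, with 15 and 26 counts in WT and Lsh-/- fibroblasts and 3659 and 2894 in WT and Lsh-/- embryos. Its level per length was 11.9 and 20 CPM per kb in the fibroblast libraries and 1734 and 1425 CPM per kb in the embryo libraries. On the same scale the Txn1 element stood at 702, 592, 284 and 341 and the Eif4b element at 613, 486, 331 and 327 CPM per kb in WT fibroblasts, Lsh-/- fibroblasts, WT embryos and Lsh-/- embryos. The Igfbp5 element was thus the highest of the 3 in embryos and the lowest in fibroblasts.

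Among RTE, the reported loci with the most counts were L4 copies in exons. The copy in Cltc, the clathrin heavy chain gene, had 632, 618, 932 and 776 counts in WT fibroblasts, Lsh-/- fibroblasts, WT embryos and Lsh-/- embryos, with log2 fold changes of -0.08 (-0.24 to 0.08) and -0.21 (-0.35 to -0.07). The copy in a UTR of Rps24, a ribosomal protein gene, had 313, 346, 433 and 431 counts, with a log2 fold change of 0.10 (-0.13 to 0.32) in fibroblasts and 0.05 (-0.15 to 0.24) in embryos. Its intervals include 0 in both tissues. The wholly coding copy in Gm12166 had 175, 227, 428 and 471 counts, with log2 fold changes of 0.33 (0.04 to 0.62) and 0.19 (0.00 to 0.38).

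The comparison of Lsh-/- with WT fibroblasts addressed whether loss of Lsh changed RNA from these elements. Of the members, 405 had at least 10 counts in the pair. Their median log2 fold change was 0.07 (95% interval over loci -0.05 to 0.17), and that of all 14058 LINE loci with as many counts was 0.09 (0.06 to 0.11). A log2 fold change above 1 was found in 79 members, 19.5% (15.9 to 23.6), beside 24.1% of all LINE loci. Below -1 lay 54 members, 13.3% (10.4 to 17), beside 18.2% of all LINE loci. Both shares were below those of LINE loci as a whole, as were those of L2, with 17.6% above 1 and 15.9% below -1. Scaling changed this balance most: with the total of all 6 tables in place of the scaling used here, the members' median was 0.74 and 83.3% of the loci past 1 in size were higher in Lsh-/-, as against 59.4%, and for all LINE loci the median went from 0.09 to 0.76 and this share from 56.9% to 82.7%. Such a change shifts all loci of the pair alike.

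CR1 had 65 loci above 1 (21.5%, 17.3 to 26.5) and 39 below -1 (12.9%, 9.59 to 17.2) out of 302. RTE had 14 above (13.6%, 8.27 to 21.5) and 15 below (14.6%, 9.03 to 22.6) out of 103. The intervals of the 2 families overlapped in both directions. The shares differed by depth. Of 156 members with 10 to 19 counts, 29.5% were above 1 and 25% below -1, beside 26.7% and 23.9% of all LINE loci at that depth. Of 129 members with at least 50 counts 9.3% were above and 4.65% below, beside 18.1% and 6.33%.

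A log2 fold change above 5, the limit drawn in the study, was reached by 12 members (2.96%, 1.7 to 5.11), beside 8.74% of all LINE loci and 1.4% of L2 loci. Below -5 lay 4 members (0.988%), beside 1.04%. Every one of these 16 loci had 0 counts in one library of the pair, so its ratio is a lower bound, taken against a floor of 3 counts in that library. At this floor only 1 fibroblast member (0.247%) stayed above 5 and 0 stayed below -5.

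**Figure D2:**
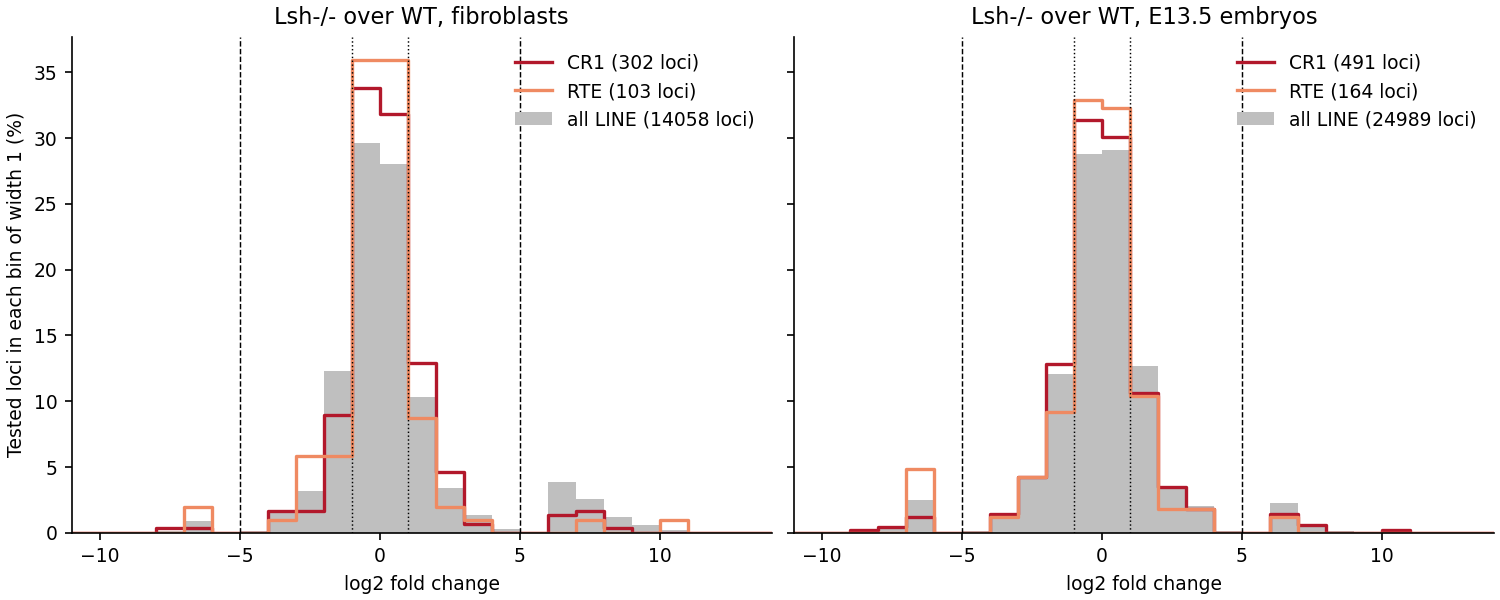
Distribution of log2 fold changes, Lsh-/- over WT, of CR1 and RTE loci that reached 10 counts in the pair, in fibroblasts and embryos, as a share of loci per bin beside the same for all LINE loci. The medians of CR1 and RTE loci were 0.07 in fibroblasts and -0.05 in embryos, and 12 fibroblast and 13 embryo loci lay above 5.

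The shares differed by place in the genome in fibroblasts. Of 36 members tested outside genes, 15 were above 1 (41.7%, 27.1 to 57.8) and 7 above 5 (19.4%, 9.75 to 35). For all LINE loci outside genes the same shares were 53.3% and 34.2%, and for L2 loci outside genes 26.2% and 5%. The members thus lay between L2 and LINE loci as a whole. In introns 37 of 200 members were above 1 (18.5%, 13.7 to 24.5) and 43 below -1 (21.5%, 16.4 to 27.7), beside 16.3% and 22.1% of all intronic LINE loci. In coding exons 6 of 77 were above 1 (7.79%, 3.62 to 16) and 1 was below -1, beside 14.7% and 6.47%. In UTRs 15 of 75 were above 1 (20%, 12.5 to 30.4) and in non-coding exons 6 of 17 (35.3%, 17.3 to 58.7). Over all exons together 27 of 169 were above 1 (16%, 11.2 to 22.2), a lower share than outside genes. The interval of the members' share above 1 included the share of all LINE loci outside genes, in introns, in coding exons and in UTRs (16.5% of LINE loci), but not in non-coding exons (16.3% of LINE loci).

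Of members with at least 50 counts in the fibroblast pair, the L4 nearest Unc5d was the highest, with 0 and 163 counts, and is described with the other loci above 5. The highest with counts in both libraries was the L3b in a UTR of Npnt, which encodes the extracellular matrix protein nephronectin. The 2 fibroblast libraries, WT and Lsh-/-, had 12 and 188 counts there, 15.2-fold higher after scaling (log2 fold change 3.91, 3.08 to 4.90). In embryos it had 314 and 578 counts, with a log2 fold change of 0.93 (0.73 to 1.14). It was thus low in WT fibroblasts alone. Next came the L3 in an exon of the non-coding gene Gm13816, with 6 and 45 counts (2.84, 1.63 to 4.38), and an L3 on sequence assigned to chromosome X but not placed on it, with 15 and 76 counts (2.29, 1.48 to 3.20). Of the L4 loci, the copy in a coding exon of the amino acid transporter gene Slc38a6 had 17 and 46 counts (1.38, 0.56 to 2.29). The interval upstream of this copy had 24 and 54 counts, higher like the element. The copy in an intron of the metal ion transporter gene Slc39a14 had 16 and 34 (1.04, 0.14 to 2.0).

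Of members with at least 50 counts, the lowest in fibroblasts was the L3 in an intron of Trip4, a transcription coactivator gene, with 57 and 13 counts in the WT and Lsh-/- fibroblast libraries (-2.17, -3.17 to -1.29). In embryos it had 37 and 0 counts, 11.9-fold lower in Lsh-/- against the floor of 3 counts. The interval upstream of it had 34, 34, 34 and 32 counts in WT fibroblasts, Lsh-/- fibroblasts, WT embryos and Lsh-/- embryos, so the element was lower where this interval was not. In Apln, which encodes the peptide apelin on chromosome X, the L3 in a UTR had 75 and 24 counts (-1.69, -2.42 to -1.01). The L3 in the lincRNA Gm17311 had 87 and 37 (-1.28, -1.88 to -0.71), and in embryos 16 and 2 (-2.87, -6.11 to -0.86). Of these 3 loci, Trip4 and Gm17311 were lower in both Lsh-/- libraries with intervals that excluded 0. Of L4, only the copy in a UTR of Zzef1 passed -1 at this depth, with 199 and 102 counts (-1.01, -1.37 to -0.66), and in embryos 120 and 160 (0.47, 0.12 to 0.82). The interval upstream of it had 107 and 59 counts in fibroblasts and 42 and 65 in embryos, in the same directions as the element. An L3 in an intron of Masp1, a protease gene of the complement system, is added because it held the most counts of the members below -1. It had 950 and 407 counts in WT and Lsh-/- fibroblasts (-1.27, -1.44 to -1.10) and 365 and 432 in embryos (0.30, 0.09 to 0.50). The interval downstream of it had 71 and 35 counts in fibroblasts, lower like the element, and 21 and 19 in embryos.

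**Figure D3:**
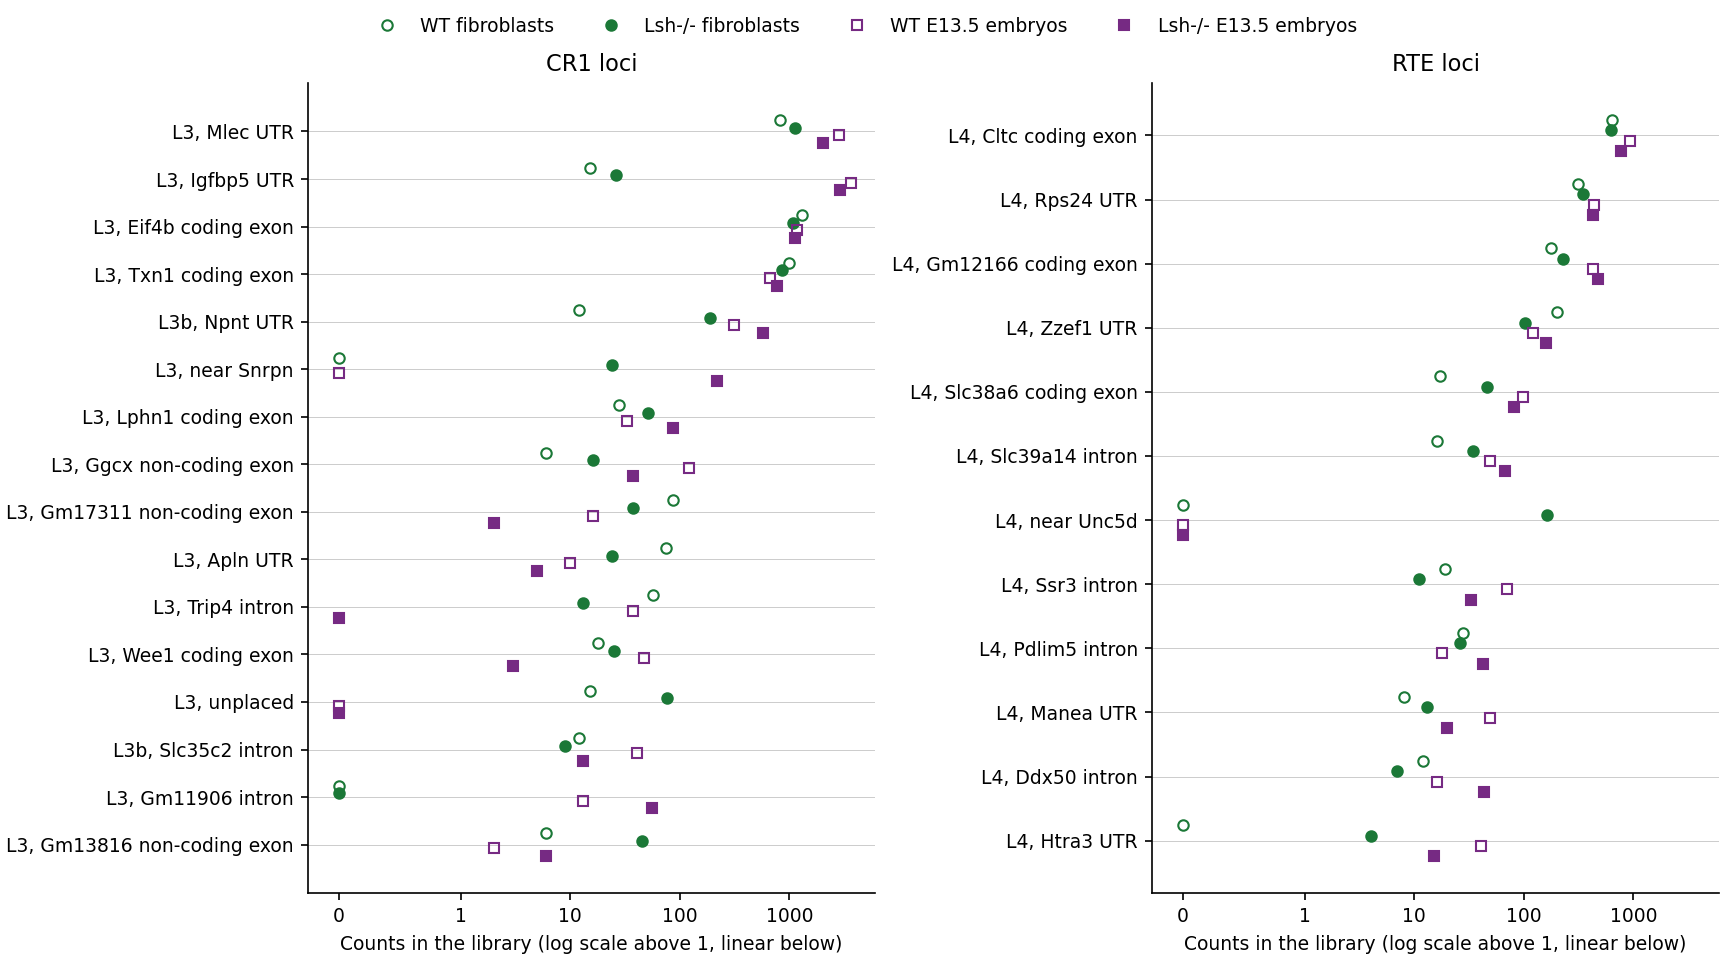
Counts in each of the 4 libraries at the named CR1 and RTE loci, on a logarithmic axis with 0 set apart. At the L3b in Npnt the fibroblast points, WT and Lsh-/-, lie at 12 and 188, and the L3 nearest Snrpn had 0 in both WT libraries.

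The 12 members above 5 in fibroblasts were picked by their values and are given as a description. Of these, 7 lay outside genes, beside 36 of all 405 tested members. The L4 nearest Unc5d, a netrin receptor gene 313038 bp away, had 163 counts in Lsh-/- fibroblasts and 0 in the other 3 libraries, at least 52.6-fold higher. The L3 nearest Macc1 had 31 counts in Lsh-/- fibroblasts (10-fold) and the L3 nearest Cdh12, a cadherin gene, 26 (8.39-fold), both with 0 in the other 3 libraries. All counts of these 3 loci came from 1 library. The L3 nearest Snrpn, 204381 bp from that imprinted gene, had 24 counts in Lsh-/- fibroblasts (7.75-fold) and 220 in Lsh-/- embryos (76.1-fold), with 0 in both WT libraries. The loci nearest Olfr1028, Slitrk2 and Fancl had 23, 12 and 11 counts in Lsh-/- fibroblasts, and the Slitrk2 locus is on chromosome X. Inside genes, the L3 in an intron of Cntnap2, which encodes a neuronal adhesion protein, had 37 counts (11.9-fold). The L4 in a UTR of She had 26 (8.39-fold), the L3 in a coding exon of Nxf3 on chromosome X 19, the L3b in a UTR of Ttbk1 15 and the L3 in an intron of Gm13849 10.

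Other repeats near these members were counted in the same library. Within 20 kb, a distance chosen after the data were seen, 8 of the 12 had another LINE or LTR locus above 5 (66.7%, 39.1 to 86.2). For 6 of them an LTR was among these. Of 67 members between 1 and 5 none had such a neighbour (0 to 5.42%), and of 272 within 1 in size 4 did (1.47%, 0.573 to 3.72). The same share was not taken for all LINE loci above 5, and the groups were not matched for place, so these shares are a description only. Around the L4 nearest Unc5d the listed repeats summed to 0 counts in WT fibroblasts, 2747 in Lsh-/- fibroblasts, 1 in WT embryos and 10 in Lsh-/- embryos. An LTR48 and an IAPLTR1_Mm, whose spans overlap so that reads may be counted in both, had 580 and 377 counts in Lsh-/- fibroblasts and 0 in WT. IAPLTR1_Mm is a long terminal repeat of intracisternal A-particles, a family of endogenous retroviruses. Around the L3 nearest Cdh12 the sums were 0, 3073, 0 and 0, with 1428 counts at an RLTR15 and 1379 at an overlapping IAPLTR1_Mm. Around the L3 nearest Macc1 they were 1, 816, 0 and 52. These 3 elements were small parts of clusters of repeats counted in Lsh-/- fibroblasts. The loci nearest Olfr1028 and in Gm13849 lay inside the annotated span of an IAP LTR, with 1 and 358 counts and with 0 and 42 counts in WT and Lsh-/- fibroblasts. The L3 nearest Snrpn had an L1M5 beside it, with 0 and 32 counts in fibroblasts and 0 and 326 in embryos, and an IAPLTR1a_Mm 18452 bp away, with 0 and 21 and with 2 and 93. The sums there were 0, 58, 4 and 425. Whether RNA of a neighbouring repeat ran through these elements was not tested.

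**Figure D4:**
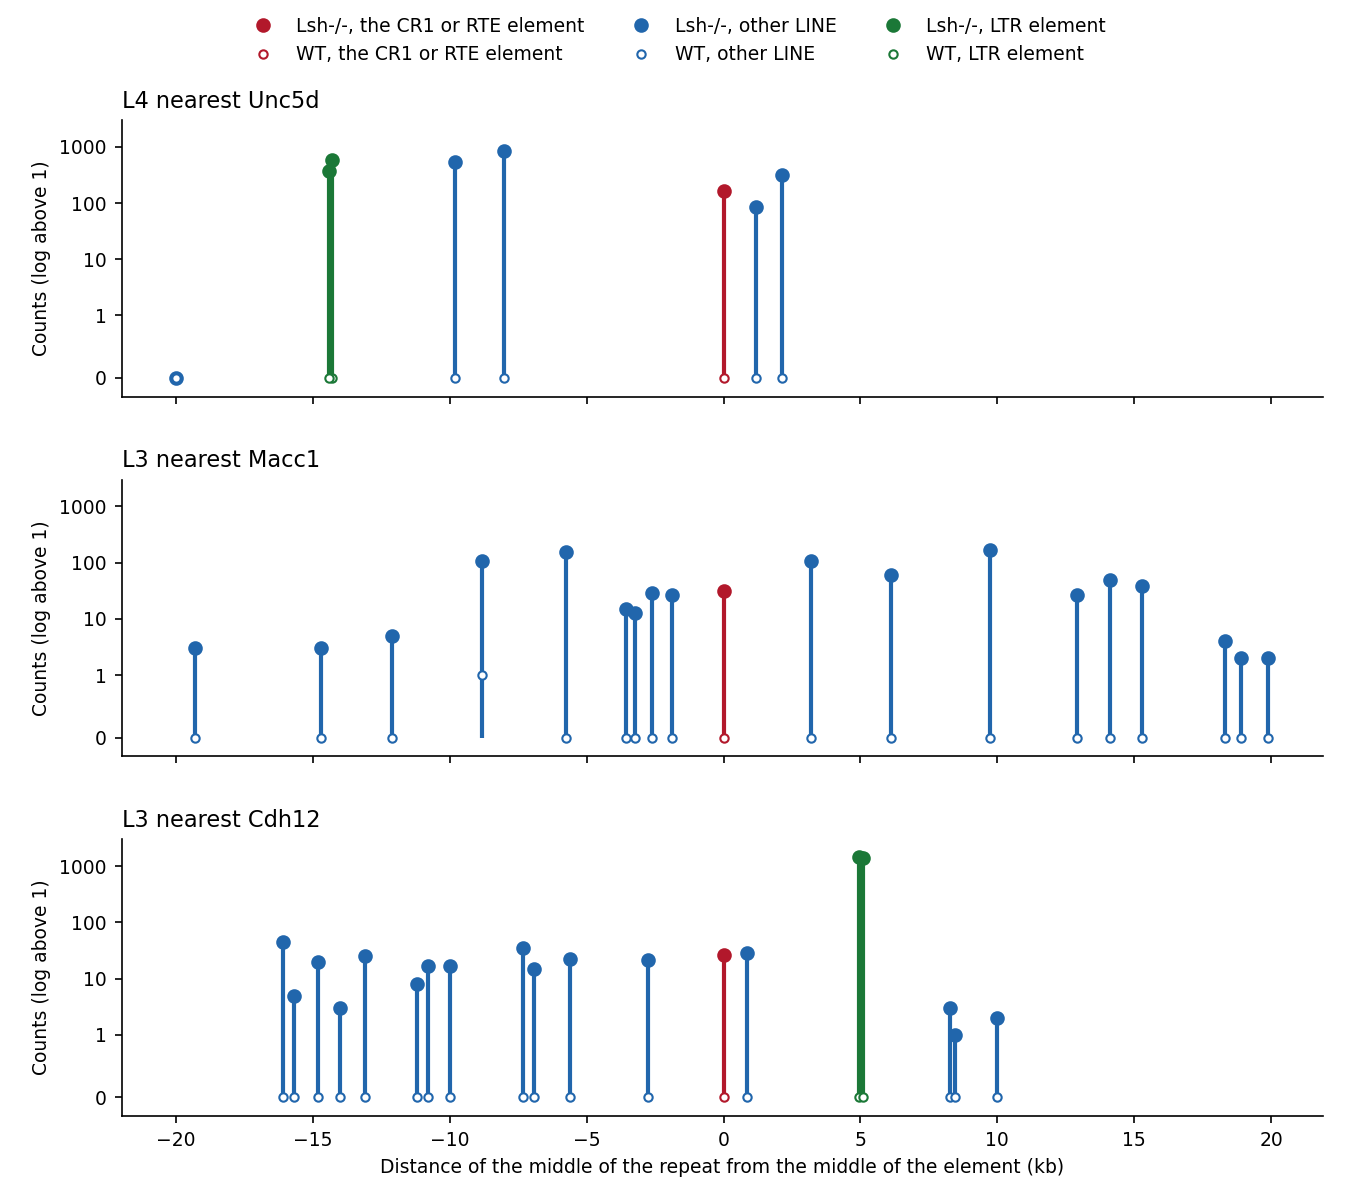
Counts of listed LINE and LTR loci by distance in kb from the middle of 3 elements above 5 in fibroblasts, those nearest Unc5d, Macc1 and Cdh12, with open points for WT and filled points for Lsh-/- fibroblasts on an axis that is logarithmic above 1. The neighbours of the L4 nearest Unc5d summed to 0 in WT fibroblasts and to 2747 in the Lsh-/- library.

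The 4 members below -5 in fibroblasts were intronic, as were 200 of all 405 tested members. Of the 4, 2 lay in Slc1a3, which encodes a glutamate transporter. The L3 at chr15:8613679-8613985 had 30 and 0 counts in the WT and Lsh-/- fibroblast libraries, 10.3-fold lower against the floor, and 38 and 13 in embryos. The L3 at chr15:8633035-8633104 had 11 and 0 counts (3.79-fold lower against the floor) in fibroblasts and 3 and 10 in embryos. The interval upstream of the first had 131 and 2 counts in WT and Lsh-/- fibroblasts, and the interval downstream of it 46 and 0. The low counts in Lsh-/- fibroblasts thus extended beyond the elements. The L4 in an intron of Gxylt2, a xylosyltransferase gene, had 14 and 0 counts (4.82-fold lower against the floor), and a neighbouring L4 in that intron 13 and 2. The L4 in an intron of Arrdc3 had 10 and 0 counts (3.44-fold lower against the floor).

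In embryos, 655 members had at least 10 counts in the pair, with a median log2 fold change of -0.05 (-0.11 to 0.05). For all 24989 LINE loci it was 0.04. Above 1 lay 114 members, 17.4% (14.7 to 20.5), beside 21.3% of all LINE loci. Below -1 lay 132, 20.2% (17.3 to 23.4), beside 20.7%. Above 5 lay 13 (1.98%, 1.16 to 3.37) beside 3.09%, and below -5 lay 17 (2.6%, 1.63 to 4.12) beside 2.89%. With libraries at 0 set to 3 counts, 1 member lay above 5 and 0 below -5. The members therefore lay on both sides in like numbers, at shares near or below those of LINE loci. L2 loci had 18% above 1 and 19.3% below -1. CR1 had 89 loci above 1 and 100 below -1 out of 491, and RTE 25 and 32 out of 164. With at least 50 counts, 8 of 206 members were above 1 (3.88%) and 10 below -1 (4.85%), beside 7.58% and 7.53% of all LINE loci at that depth. Outside genes 13 of 54 were above 1 (24.1%, 14.6 to 36.9), where all LINE loci had 28.5%, and in introns 86 of 396 (21.7%, 17.9 to 26), where all LINE loci had 20.9%. The liver and erythroid genes given above were lower in the Lsh-/- embryos, and their part in these differences was not tested.

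The L3 nearest Snrpn was the highest member in embryos. Of the other loci with at least 50 counts, the L3 in an intron of Gm11906 had 13 and 56 counts in the WT and Lsh-/- embryo libraries (2.15, 1.27 to 3.16) and 0 in both fibroblast libraries. Lphn1 encodes the adhesion receptor latrophilin, and the L3 in its coding exon had 33 and 86 counts (1.43, 0.84 to 2.06), and in fibroblasts 28 and 51 (0.82, 0.13 to 1.54). It was higher in both Lsh-/- libraries. The interval downstream of it had 228 and 567 counts in WT and Lsh-/- fibroblasts, higher like the element, and 1037 and 912 in embryos. Of L4, the copy in an intron of the RNA helicase gene Ddx50 had 16 and 43 counts (1.47, 0.62 to 2.41). The copy in an intron of Pdlim5 had 18 and 42 (1.27, 0.45 to 2.16).

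Of members with at least 50 counts, the lowest in embryos was the L3 in a coding exon of Wee1, a kinase that restrains entry into mitosis, with 47 and 3 counts in the WT and Lsh-/- embryo libraries, 15.1-fold lower (-3.86, -6.24 to -2.28). In fibroblasts the same element had 18 and 25 counts (0.43, -0.50 to 1.39). It was therefore low in the Lsh-/- embryos alone, and the difference between the pairs was not tested. In Ggcx, which encodes the vitamin K-dependent carboxylase, the L3 in a non-coding exon had 121 and 37 counts (-1.65, -2.23 to -1.11). The L3b in an intron of Slc35c2 had 41 and 13 (-1.59, -2.63 to -0.67). The downstream intervals differed less, with 1409 and 1065 counts at Ggcx and 1806 and 1627 at Slc35c2. The lowest L4 loci at this depth lay in a UTR of the serine protease gene Htra3, with 41 and 15 counts (-1.39, -2.36 to -0.51), in a UTR of the mannosidase gene Manea, with 49 and 20 (-1.23, -2.07 to -0.46), and in an intron of Ssr3, with 70 and 33 (-1.03, -1.67 to -0.41). Of the embryo members past 5, 12 of the 13 above and 13 of the 17 below were intronic, beside 396 of all 655 tested members. Except for the L3 nearest Snrpn they had few counts. Of the 13 above 5, 1 had another repeat above 5 within 20 kb (7.69%, 1.37 to 33.3). That share was 4.95% for members above 1 up to 5 and 2.44% for members within 1 in size.

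Intervals about 10 kb upstream and downstream of each element measure the surrounding RNA. Their medians lay near 0, which the scaling over intervals flanking L1 loci favours, and with the total of all 6 tables the fibroblast median was 0.70. In fibroblasts 2968 flanking intervals of CR1 and RTE elements had a median log2 fold change of 0.03 (-0.01 to 0.06), with 487 above 1 (16.4%), beside 18.8% of all LINE flanks, and 461 below -1 (15.5%), beside 13.54%. In embryos 4331 intervals had a median of -0.03, with 602 above 1 (13.9%) beside 14.3% and 604 below -1 (13.9%) beside 14.3%. In fibroblasts the flanks leaned the same way as their element. Flanks of members above 1 had a median of 0.31 (0.14 to 0.58) over 75 intervals, flanks of members below -1 a median of -0.37 (-0.62 to -0.10) over 50, and flanks of members within 1 a median of -0.01 (-0.08 to 0.07) over 337. In embryos the 3 medians were 0.06 (-0.03 to 0.16), -0.14 (-0.25 to -0.05) and -0.02 (-0.09 to 0.03). For the members above 5 in fibroblasts, 6 flanking intervals had at least 10 counts and 5 of them were above 5 as well. Over all fibroblast flanks the share above 5 was 2.86% for CR1 and RTE and 6.56% for all LINE loci. The members were picked by their values in the same libraries. A flank at 0 in WT could reach 10 counts only through the Lsh-/- library, so this is a description only.

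CpG content was not used to choose the members. Of 2909 elements on assembled chromosomes, 43.5% held no CpG, compared with 36.9% of L2 and 22.7% of the longer L1 loci. Per 100 bases, however, the members had 0.799 CpG, against 0.841 in L2, 0.678 in L1 and 0.683 in all LINE loci. Their density was thus above that of L1 and below that of L2. The part of element length in the share without CpG was not tested. Members in coding exons had 1.15 CpG per 100 bases and members in introns 0.76. In fibroblasts the median log2 fold change was -0.05 (-0.20 to 0.15) for 188 members without CpG, 0.07 (-0.08 to 0.21) for 156 with 1 or 2 and 0.13 (-0.18 to 0.53) for 59 with at least 3. In embryos these medians were -0.01 (-0.14 to 0.11), -0.03 (-0.12 to 0.05) and -0.31 (-0.45 to 0.05). The intervals overlapped in both tissues, and the difference between the CpG groups was not tested.

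Of the members, 353 had at least 10 counts in both tissues. Of these, 55 were above 1 and 48 below -1 in fibroblasts, and 36 above 1 and 50 below -1 in embryos. Above 1 in both were 9 (2.55%), beside 3.6% of the 11016 LINE loci tested in both tissues, and below -1 in both were 11 (3.12%), beside 3.5%. Another 9 (2.55%) were above 1 in fibroblasts and below -1 in embryos, beside 2.98%, and 8 (2.27%) the reverse, beside 2.84%. Loci on the same side and loci on opposite sides were thus about equally many. Across these 353 loci Spearman's rho between the 2 fold changes was 0.03 and Pearson's r 0.17, given as a description because loci share libraries and many have few counts. Among 116 loci with at least 50 counts in each pair, rho was 0.03 and r 0.11. Direction in one tissue thus said little about direction in the other.

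**Figure D5:**
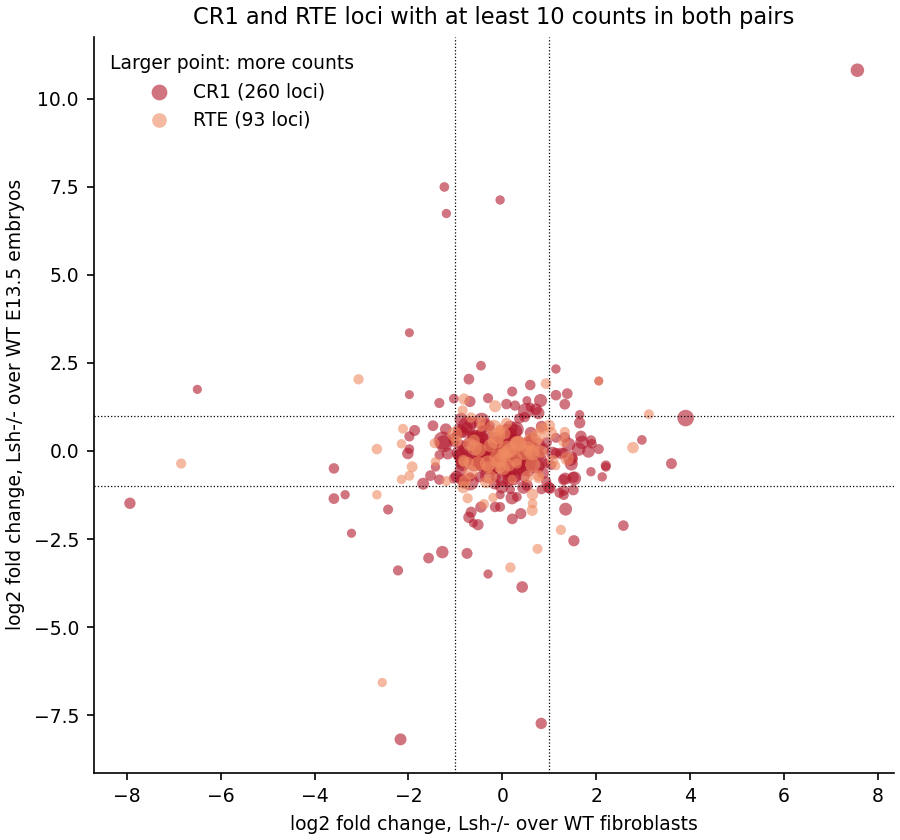
Log2 fold change, Lsh-/- over WT, in embryos against that in fibroblasts for the 353 CR1 and RTE loci with at least 10 counts in each pair. Of these loci, 9 were above 1 in both tissues, 11 were below -1 in both, and Spearman's rho was 0.03.

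Between the WT libraries, 544 members could be compared across tissues, a comparison that shares its libraries with those above. The median log2 ratio of embryos over fibroblasts was 0.46 (0.30 to 0.56), and 0.54 for all LINE loci. Above 1 lay 198 members (36.4%, 32.5 to 40.5), beside 38.1% of all LINE loci, and below -1 lay 70 (12.9%, 10.3 to 15.9), beside 13.53%. The median was 0.18 (-0.04 to 0.42) in exons, 0.54 (0.38 to 0.86) in introns and 0.94 (0.40 to 1.87) outside genes. The Igfbp5 element, named above for its counts, had a log2 ratio of 7.18 (6.46 to 8.02). Some of the extreme loci are given next, chosen by this ratio. The L3 in a coding exon of Myh3, the embryonic myosin heavy chain, had 0 counts in both fibroblast libraries and 93 and 109 in WT and Lsh-/- embryos. The L4 in a UTR of Olfml2a had 0 and 0 against 123 and 90, and the L3 in a UTR of Tspan18 0 and 2 against 197 and 227. Higher in WT fibroblasts, though counted in both tissues, were the intronic Masp1 element (-2.12, -2.30 to -1.95), the Apln element (-3.63, -4.77 to -2.69) and the L3b in a UTR of Tfrc, the transferrin receptor gene, with 498 and 410 counts in fibroblasts and 275 and 222 in embryos.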

How the data were processed

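RNA-seq was compared in 4 libraries, 1 per group. Per the labels and the study's methods, the authors aligned strand-specific read pairs to mm9 with TopHat 1.4.0, kept unique hits without mismatches, and joined them to RepeatMasker loci or to intervals shifted from them; the deposited values are raw counts per locus, and an unlisted locus was taken as 0. Whether a pair counted once was not given in the sources used here. Library sizes were scaled by TMM in edgeR 4.0.16 over intervals flanking L1 loci (LINE element totals 456109 to 855043 counts). Log2 fold changes used a prior count of 0.125 and at least 10 counts in the pair. Intervals are Wilson for shares, order-statistic for medians and exact conditional binomial for ratios, at 95%, and cover counting error or loci only. Functions were tested on simulated data. Places come from the GENCODE annotation of NCBIM37, with bedtools 2.31.1. Named loci were, per family and tissue, the 3 with the most counts and the 3 highest and 3 lowest log2 fold changes past 1 in size at 50 or more counts; other named loci were chosen after their values were seen, and 1 locus is not reported here. Members, marker lists and tests were chosen with earlier results of these data known. Alternatives were another prior count, 3 other scalings (DESeq2 1.42.0 among them), other count minimums, loci without exons and autosomes only; setting libraries at 0 to 3 counts was added after seeing the data.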

Additional observations from a re-analysis of the deposited data

Results flagged for a closer look

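At 4 loci the log2 fold changes, Lsh-/- over WT, were over 1 in size with opposite signs in the 2 tissues, and the counting intervals excluded 0 in each. Smaller opposite differences, with intervals that excluded 0, stand in the report for the elements in Mlec, Txn1 and, past 1 in fibroblasts only, Masp1 and Zzef1. The 4 loci were picked by their pattern from 353, the difference between the tissues was not tested, and all have few counts. The L3 in an intron of the DNA ligase gene Lig1 had 10 and 30 counts in WT and Lsh-/- fibroblasts (1.53) and 31 and 5 in WT and Lsh-/- embryos (-2.55). The L3 in an intron of Sufu, a negative regulator of Hedgehog signalling, had 2 and 13 counts (2.58) and 32 and 7 (-2.12). The L3 in a UTR of Samd10 had 5 and 15 counts (1.52) and 27 and 12 (-1.11). The L4 in an intron of the kinase gene Sik2 went the other way, with 9 and 1 counts (-3.06) and 7 and 28 (2.03).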

How the results depend on the processing

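No paired analysis was possible because each group had 1 library. Of 76 recomputed summary values 50 stayed within the range set for them, 26 moved and 0 called values reversed. With the total of all 6 tables as library size, the fibroblast medians were 0.74 for elements and 0.70 for flanks, with 155 members above 1 and 31 below -1; with each table's own total the medians were 0.18 and 0.73. DESeq2 size factors gave flank medians of 0.07 in fibroblasts and -0.08 in embryos. With no count minimum the element medians were -0.40 and -0.35 in fibroblasts and embryos, the flank medians -0.10 and -0.09, and the members above 1 and below -1 numbered 600 and 839 in fibroblasts and 681 and 910 in embryos. In fibroblasts the element median thus changed sign, and more members lay below -1 than above 1. With at least 50 counts the members above 1 and below -1 numbered 12 and 6 in fibroblasts and 8 and 10 in embryos, and the fibroblast flank median was 0.07. At a limit of 5 they numbered 12 and 4, and 13 and 17. Without exonic loci 52 fibroblast members were above 1. Of the fold changes of named loci, 12 moved in fibroblasts with the total of all 6 tables, and none reversed.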

Other observations

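Genes that held more than 1 tested member allowed a comparison of members within a gene. In fibroblasts, 369 tested members lay in 349 genes. Of the 20 genes with at least 2 members, 16 had log2 fold changes of the same sign. Slc1a3 and Gxylt2, already named above for their low values, were among the genes in which the members were lower in Lsh-/-. In embryos, 601 members lay in 555 genes, and 24 of the 41 genes with at least 2 members had the same sign. The same share was not taken for all LINE loci that share a gene, so these counts are a description only.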
